A study of Saccharomyces cerevisiae with 26 samples.

Results

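Biotin (vitamin H) is the prosthetic group of the carboxylases that make malonyl-CoA and oxaloacetate in *S. cerevisiae*. Yeast obtains it by uptake or by synthesis, and only the last steps of the synthesis are covered here. Described here are 6 genes of biotin synthesis, uptake and ligation, of 6600 genes in each deposited table. They were listed by their systematic names and not by their expression values, although earlier results of these data were known. All 6 were found: *BIO5* (YNR056C), *BIO3* (YNR058W), *BIO4* (YNR057C), *BIO2* (YGR286C), *VHT1* (YGR065C) and *BPL1* (YDL141W). Bio5 is a plasma membrane permease for 7-keto-8-aminopelargonic acid, a biotin precursor. Bio3, an aminotransferase that uses S-adenosylmethionine as amino donor, converts this precursor to 7,8-diaminopelargonic acid, and Bio4, dethiobiotin synthetase, closes the ureido ring. Bio2 is biotin synthase, a mitochondrial iron-sulfur enzyme of the radical S-adenosylmethionine family that inserts the sulfur atom. Vht1 is the proton-coupled importer of biotin itself, and Bpl1 is the ligase that attaches biotin to its carrier proteins. In yeast, low biotin is known to activate *VHT1* and *BIO5* through the factor Vhr1, and iron depletion is known to raise *VHT1* and to lower the *BIO* genes.

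RNA came from aerobic, glucose-limited cultures of the laboratory strain CEN.PK113-7D, a haploid prototroph without introduced alleles. Steady-state cultures diluted at 0.025 per hour formed 4 groups of 3 libraries. The reference was held at pH 5 and 0.04% CO2, and the others at pH 5 and 50% CO2, at pH 3 and 0.04% CO2, or at pH 3 and 50% CO2. These levels are those of the sample characteristics. The growth protocols of both 0.04% CO2 groups name compressed air as the gas and yet also state 50% CO2, a conflict that the labels do not settle. In the last group, 1 library was labelled as a chemostat and 2 came from the industrial retentostats at sampling point 1, before cell retention began. Retentostats, in which a filter keeps all biomass in the vessel while the feed continues, were sampled at 4 points in 2 laboratory cultures (pH 5, 0.04% CO2) and 2 industrial cultures (pH 3, 50% CO2). All steady-state and industrial cultures shared a feed with 20 g/L glucose, biotin brought to 1.1 mg/L and iron sulfate brought to 7.5 mg/L. The labels of the laboratory retentostats name no such additions beside the vitamin and trace element solutions, and their feed fell to 7.5 g/L glucose. The methods of the study name another sequencing company for the laboratory retentostats, whereas the labels name a single company for all libraries. According to these methods, cultures at pH 3 oscillated, and viability was lower at pH 3. RNA of whole cultures cannot tell fewer expressing cells from less RNA per cell. The growth rate at each sampling point was not used here.

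Deposited values are FPKM, read numbers divided by the length of the gene and the size of the library. Whole read numbers could be recovered from them, which gave about 12500000 to 16700000 reads per steady-state library, 13100000 to 16700000 per industrial retentostat library and 21700000 to 86500000 per laboratory retentostat library. Since the deposited values carry no further scaling, each library was divided by a single factor, its median ratio to the geometric mean library, and the result is called normalized FPKM. The factors were 0.630 to 0.743 at pH 3 with 0.04% CO2 and 0.821 to 1.15 in the other 9 steady-state libraries, so scaling raises every gene of the former group relative to the rest. Without scaling, the median log2 change over all genes was -0.42 for low pH at 0.04% CO2 and 0.60 for high CO2 at pH 3. Among replicate pairs, the libraries at point 2 of the laboratory retentostat were the least alike, with r = 0.947 against at least 0.969 for the mean likeness of every other library to its group.

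*BIO5*, *BIO4* and *BIO3* lie together: *BIO5* (chromosome XIV, 731618 to 733303, minus strand), *BIO4* (733356 to 734069, minus strand) and *BIO3* (734291 to 735733, plus strand) in R64 coordinates. *BIO4* and *BIO3* are transcribed away from each other from a shared gap of 221 bases, and *BIO4* ends 52 bases before the start codon of *BIO5*. *BIO2* (1063813 to 1064940) and *VHT1* (618077 to 619858) lie on the minus strand of chromosome VII, and *BPL1* (203039 to 205111) on the plus strand of chromosome IV. Each of the 6 has a single coding exon. Some strains of the species carry further biotin genes, *BIO1* and *BIO6*, the latter a relative of *BIO3*. Whether the strain used here is among them was not examined, so the genes listed may not be its full biotin set. Its reads were aligned to the reference genome of another strain. Neither gene was analysed here, and whether reads of *BIO6* were counted on *BIO3* was not tested. The values of *BIO3* may therefore include such reads.

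The upstream stretches of *VHT1* and *BIO5* are shown because these transporter genes share the element through which Vhr1 is known to act, AATCANNNNNNNNTGACT or AATCANNNNNNNNTGATT, searched on both strands. It was found in the 300 bases before the start codon of 2 of the 6 genes, and of 14 of 6002 protein-coding genes (0.233%). Both stretches run from base -300 to base -201, counted back from the start codon, on the strand of the gene, in the S288C reference sequence of R64, with the element in capitals.
*VHT1* (chrVII:620059-620158, minus strand): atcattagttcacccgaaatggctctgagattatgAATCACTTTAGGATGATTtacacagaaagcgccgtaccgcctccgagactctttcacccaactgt
*BIO5* (chrXIV:733504-733603, minus strand): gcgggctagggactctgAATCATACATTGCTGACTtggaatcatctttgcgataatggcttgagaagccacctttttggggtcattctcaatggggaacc
The element of *VHT1* occupies bases -265 to -248 and reads as a match on both strands. That of *BIO5* occupies bases -283 to -266, inside the coding sequence of *BIO4*. TGCACCC, a sequence bound by the iron regulator Aft1, was searched in the same windows on both strands. It was found before none of the 6 genes, and before 80 of the 6002 genes (1.33%). Other forms of an Aft1 site were not searched. A match of letters is a description and not a measured binding site.

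The genes differed widely in level, which FPKM allows to be compared per length. Over the 12 steady-state libraries, the mean normalized FPKM was 235 for *BIO2*, above 85.1% of all genes, and 78.7 for *VHT1*, above 66.2%. The median gene stood at 42.7, close to *BPL1* with 38.2 and *BIO4* with 33.9. *BIO3* with 13.9 and *BIO5* with 10.98 were low, above 25.8% and 22.6% of genes. By this mean, the last enzyme of the route was the most abundant of its transcripts and the precursor permease the least. The latter did not hold in every group. At pH 5 with 50% CO2, *BIO5* lay above *BIO3* in each library (10.2, 16.3 and 24.8 against 8.73, 15.0 and 13.4). In both pH 3 groups it lay below *BIO3* in each library, and in the reference the order varied. *BIO5* rested on 111 to 439 reads per steady-state library, and its mean deposited FPKM of 9.30 was below the minimum of 10 that a gene needed to enter the test.

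**Figure D1:**
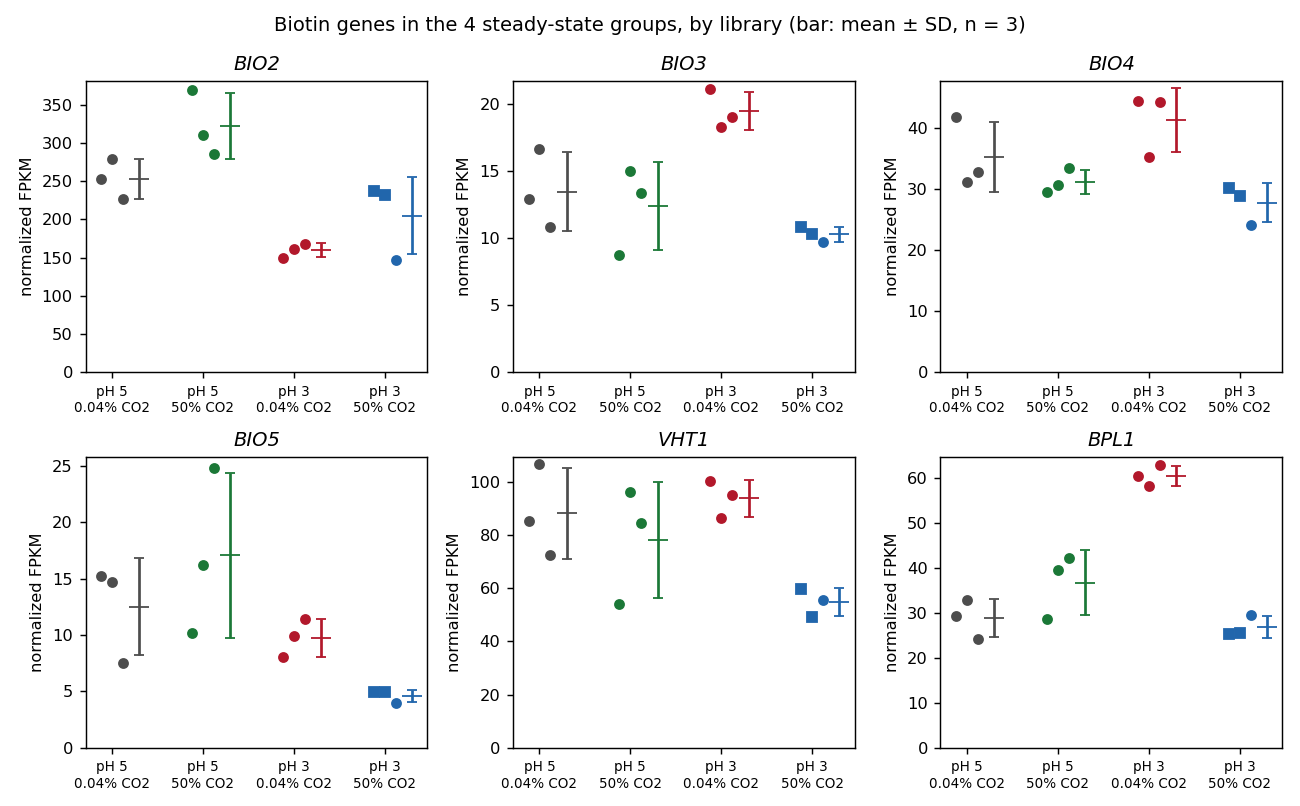
Normalized FPKM (y axis, from 0) of the 6 biotin genes in the 12 steady-state libraries, grouped by pH and CO2 on the x axis; points are libraries, squares are the 2 industrial retentostat libraries at point 1, and bars give the mean and SD of 3 libraries. *BPL1* stands apart at pH 3 with 0.04% CO2, where its 3 libraries lie between 58.1 and 62.8, and *BIO5* is lowest at pH 3 with 50% CO2, between 3.97 and 4.95.

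*BPL1*, the ligase gene, was higher at low pH with 0.04% CO2. Its normalized FPKM was 29.4, 32.7 and 24.3 in the reference libraries and 60.3, 58.1 and 62.8 at pH 3 with 0.04% CO2. High CO2 alone, at pH 5, gave 28.6, 39.4 and 42.1. Both changes together gave 25.3, 25.6 and 29.6. The 3 libraries at pH 3 with 0.04% CO2 were thus higher than all other 9, which overlapped among themselves. The share of all genes that separate as *BPL1* does was not counted. Ordered by mean, the groups were pH 3 with 0.04% CO2 (60.4 ± 2.32, SD, n = 3), pH 5 with 50% CO2 (36.7 ± 7.17), the reference (28.8 ± 4.26) and pH 3 with 50% CO2 (26.8 ± 2.37), and the lower 3 groups did not separate beyond their spread. At 0.04% CO2, low pH raised *BPL1* by a log2 change of 1.05 (SE 0.15, limma, adjusted p = 0.000933), and 2 of the 5 biotin genes tested were called in this comparison, against a background of 21.3% of 5078 genes. A gene is called here at a Benjamini-Hochberg adjusted p under 0.05, and all changes are on the scale of log2(normalized FPKM + 1), which understates those of low genes. With the deposited values, the log2 change of *BPL1* was 0.61 (adjusted p = 0.0142), still called, while the background rose to 43.2%. Of all called genes, 63.2% were higher after scaling and 13.5% with the deposited values.

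*BIO2*, the biotin synthase gene, was the other gene called, and it changed in the opposite direction. It measured 252, 279 and 227 in the reference libraries and 150, 161 and 168 at pH 3 with 0.04% CO2. These groups did not overlap, but the share of all genes without overlap was not counted. The log2 change was -0.65 (SE 0.18, limma, adjusted p = 0.0261) and -1.10 (adjusted p = 0.00155) with the deposited values. The call was lost without reference library 1 or 2, or without any of the 3 libraries at pH 3 with 0.04% CO2, with adjusted p between 0.0508 and 0.0786. *BIO3* measured 12.9, 16.6 and 10.8 in the reference and 21.1, 18.3 and 19.1 at pH 3 with 0.04% CO2. Its log2 change of 0.52 (SE 0.20) was not called (adjusted p = 0.0764), but passed the limit without reference library 2 (adjusted p = 0.0460) or library 1 at pH 5 with 50% CO2 (adjusted p = 0.0256). On the deposited scale its change was 0.098 (adjusted p = 0.668). *BIO4* had a log2 change of 0.23 and *VHT1* of 0.10, both uncalled, and both turned negative with the deposited values, to -0.21 and -0.34. In the fit without the minimum level, which *BIO5* needed to be tested, its log2 change was -0.28 (adjusted p = 0.536), where 19.1% of 6408 genes were called.

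Most of the group was lower with high CO2 at pH 3. Of the 5 genes tested, 4 fell when CO2 was raised to 50% at pH 3, where 49.1% of all genes were called and 27.0% were called and lower. *BPL1*, with the values given above, fell by 1.15 on the log2 scale (SE 0.15, limma, adjusted p = 0.000406). *BIO3*, the aminotransferase gene, measured 10.8, 10.3 and 9.73 at pH 3 with 50% CO2, below each of the 3 libraries with 0.04% CO2, which gave a log2 difference of -0.86 (SE 0.20, adjusted p = 0.00541). *BIO4*, its divergent neighbour, measured 44.5, 35.2 and 44.3 with 0.04% CO2 and 30.3, 29.0 and 24.2 with 50% CO2, which gave a log2 difference of -0.55 (SE 0.14, adjusted p = 0.0100). *VHT1*, the importer gene, measured 100.2, 86.4 and 94.8 with 0.04% CO2 and 59.6, 49.2 and 55.7 with 50% CO2, which gave a log2 difference of -0.77 (SE 0.20, adjusted p = 0.0106). In each of these 4 genes, the 2 groups did not overlap, and the share of all genes without overlap was not counted.

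These calls depended on the scaling for all but *BPL1*. With the deposited values, 69.9% of all genes were called, and 86.1% of the called genes were higher with 50% CO2, against 45.1% after scaling. *BPL1* kept its call with a log2 change of -0.53 (adjusted p = 0.0115). *BIO3* with -0.28 (adjusted p = 0.202) and *VHT1* with -0.15 (adjusted p = 0.465) were no longer called, and *BIO4* turned to 0.05 (adjusted p = 0.801). *BIO2* behaved differently from the other genes in both scalings. It measured 237, 232 and 147 at pH 3 with 50% CO2, with the lowest value in the library labelled as a chemostat, and its log2 change was 0.33 (adjusted p = 0.149) after scaling and 0.95 (adjusted p = 0.00127) with the deposited values. That chemostat library taken alone is an arm of 1, for which the fit assumes the spread of the other groups. Against it, the log2 change of *BIO2* was -0.12 (adjusted p = 0.630), so its direction rests on the 2 retentostat libraries, and without the chemostat library it was called (0.55, adjusted p = 0.0169). *VHT1* had a log2 change of -0.74 against that library alone (adjusted p = 0.0868), close to its change of -0.77 with 3 libraries.

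*BIO5*, the precursor permease gene, was lowest at pH 3 with 50% CO2. It measured 4.91, 4.95 and 3.97 there and 15.2, 14.7 and 7.54 in the reference. Low pH alone gave 8.03, 9.87 and 11.4, and high CO2 alone 10.2, 16.3 and 24.8. All 9 libraries of the other groups lay above the 3 at pH 3 with 50% CO2, while the reference and both single changes overlapped. The share of all genes that separate as *BIO5* does was not counted. In the fit without the minimum level, its log2 change was -1.61 (SE 0.31, limma, adjusted p = 0.0147) for low pH at 50% CO2, -1.21 (adjusted p = 0.0351) for both changes against the reference and -0.93 (adjusted p = 0.0321) for high CO2 at pH 3. The backgrounds of that fit were 5.01%, 8.35% and 40.9% of 6408 genes. The changes stayed negative without each library in turn, between -1.92 and -1.31, between -1.51 and -1.05 and between -1.05 and -0.83, but each call was lost in part of these fits. For low pH at 50% CO2 it was lost without library 2 or 3 of either group, with adjusted p up to 0.0724. Against the reference it was lost without any library at pH 3 with 50% CO2, reference library 1 or 2, library 2 at pH 5 with 50% CO2, or library 2 or 3 at pH 3 with 0.04% CO2, with adjusted p up to 0.147. For high CO2 at pH 3 it was lost without any library with 50% CO2 or library 2 or 3 with 0.04% CO2, with adjusted p up to 0.102, with the deposited values (-0.38, adjusted p = 0.202) and with quantile normalization (-0.80, adjusted p = 0.0528). With the labelled chemostat library as the only library at pH 3 with 50% CO2, and the spread taken from the other groups, the 3 changes were -1.10 to -1.78, none smaller than with 3 libraries, and were not called (adjusted p of 0.0723 to 0.126).

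The remaining steady-state comparisons held no call among the genes that passed the minimum level. High CO2 at pH 5 left all 5 uncalled, with no unadjusted p under 0.05, in limma with either scaling, where 1.89% of all genes were called. The largest log2 changes there were 0.35 (SE 0.18) for *BIO2* and 0.33 (SE 0.15) for *BPL1*, with the 370 of *BIO2* in library 1 as its highest steady-state value. *BIO5* had a log2 change of 0.40 (adjusted p = 0.714) in the fit without the minimum level, with 1.87% called. For low pH with 50% CO2 against the reference, 0 of 5 were called by limma, 2 had an unadjusted p under 0.05, and 9.83% of all genes were called. *VHT1* was nearest the limit, with 85.2, 107 and 72.5 in the reference and the lower values given above, a log2 change of -0.66 (SE 0.20, adjusted p = 0.0574). For low pH at 50% CO2, 0 of 5 were called, 3 had an unadjusted p under 0.05, and 6.18% of all genes were called. *BIO2* missed the limit with a log2 change of -0.68 (SE 0.18, adjusted p = 0.0502), from 370, 311 and 286 at pH 5 with 50% CO2. With the labelled chemostat library as the only library of its group, *BIO2* passed the limit in both comparisons, with -0.78 (adjusted p = 0.0494) against the reference and -1.12 (adjusted p = 0.0197) for low pH at 50% CO2, but this arm of 1 library has no spread of its own and borrows that of the other groups. Library 1 at pH 5 with 50% CO2 had the lowest *BIO3*, *VHT1*, *BPL1* and *BIO5* of its group and the highest *BIO2*. Without it, *VHT1* was called against the reference (adjusted p = 0.0118), and *BIO2*, *VHT1* and *BPL1* were called for low pH at 50% CO2 (adjusted p = 0.0438, 0.0115 and 0.0120). *VHT1* was also called against the reference without reference library 3 (adjusted p = 0.0280), and *BIO2* for low pH at 50% CO2 without reference library 3 (adjusted p = 0.0426) or library 1 at pH 3 with 50% CO2 (adjusted p = 0.0477). Of the genes called for low pH at 50% CO2, 43.3% were higher after scaling and 55.3% with the deposited values.

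The effect of CO2 on *BPL1* differed between pH 5 and pH 3. The interaction was -1.48 (SE 0.22, limma, adjusted p = 0.00258) and -0.84 (adjusted p = 0.0156) with the deposited values. *BPL1* was the only 1 of the 5 genes called for the interaction with either scaling, against 20.8% of all genes after scaling and 52.5% without. The interaction of *BIO3* was -0.74 (adjusted p = 0.0690) and that of *VHT1* -0.57 (adjusted p = 0.141). Both were near 0 on the deposited scale, at -0.13 (adjusted p = 0.689) and 0.070 (adjusted p = 0.828). *BIO5* had an interaction of -1.33 (adjusted p = 0.0559) in the fit without the minimum level, where 16.6% were called. Without library 1 at pH 5 with 50% CO2, the interactions of *BIO3* (adjusted p = 0.00832), *VHT1* (adjusted p = 0.0128) and *BIO5* (adjusted p = 0.0108) were called as well. Without reference library 2 that of *BIO3* was called (adjusted p = 0.0443), and without reference library 1 that of *BIO5* (adjusted p = 0.0487). Of all genes called for the interaction, 30.3% were positive after scaling and 87.4% with the deposited values.

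**Figure D2:**
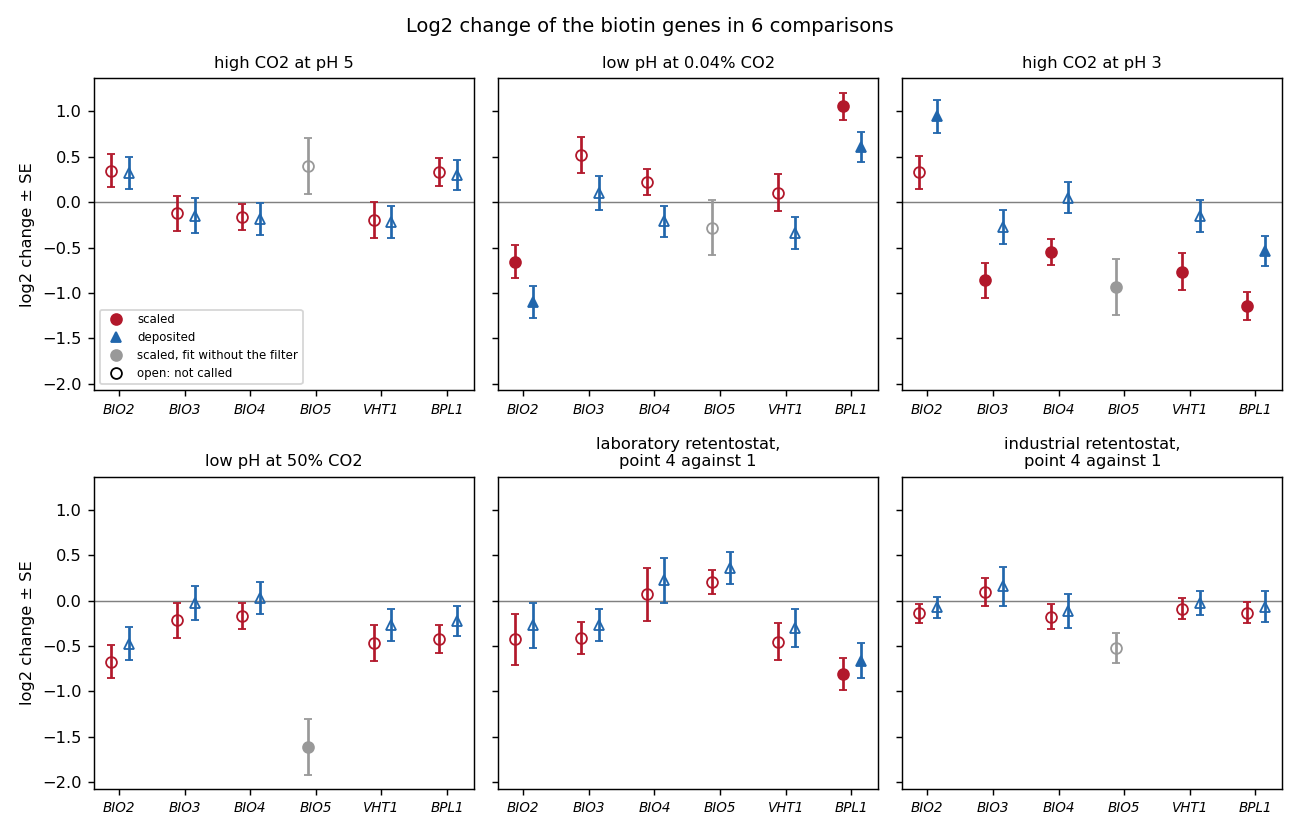
Log2 change (y axis) with its SE for each biotin gene (x axis) in 4 steady-state comparisons and 2 retentostat series; circles are normalized FPKM, triangles are deposited FPKM, grey circles are *BIO5* from the fit without the minimum level, and filled symbols are called at an adjusted p under 0.05. Deposited values are shifted down for low pH at 0.04% CO2 and up for high CO2 at pH 3, and *BPL1* is called with both scalings in these panels.

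Members of the group did not vary as a single unit across the 12 libraries. Pearson's r of log2(normalized FPKM + 1) was highest between *BIO3* and *VHT1* (0.88) and between *BIO3* and *BPL1* (0.87), and was 0.73 for the divergent pair *BIO3* and *BIO4*. For *BIO2*, r with *BIO3*, *BIO4*, *VHT1* and *BPL1* lay between -0.48 and -0.11, and was 0.49 with *BIO5*. The points share libraries and scaling factors, and with the deposited values r fell to 0.68 for *BIO3* with *VHT1*, 0.56 for *BIO3* with *BPL1* and -0.04 for *BIO3* with *BIO4*. After removal of the group means, r was 0.64 to 0.96 among *BIO3*, *BIO5*, *VHT1* and *BPL1*, highest for *BIO3* with *VHT1*. *BIO3* and *BIO4* then had 0.16. Each of the former genes was lowest of its group in reference library 3 and in library 1 at pH 5 with 50% CO2. Deviations of these libraries over all genes tested had r = 0.85, and such r between other genes was not computed. With the group means kept, the 3 genes nearest to *BPL1* were *DMA1* (0.99), *CAM1* (0.98) and *RPP0* (0.98). Those nearest to *VHT1* were *HOM3*, *ASN2* and *CDC42* (0.96 to 0.97), and those nearest to *BIO3* were *MID2*, *CCW14* and *PTM1* (0.97 to 0.98). *BIO2* was nearest to *MRX19*, *CAB2* and *TYE7* (0.90 to 0.91), *BIO4* to *RSC9*, *VPS75* and *FSH2* (0.90 to 0.94), and *BIO5* to *IZH1*, *YHR214W-A* and *SPO16* (0.90 to 0.93). On the deposited scale, r with these nearest genes was 0.94 to 0.97 for *BIO2* and 0.78 to 0.95 for *BPL1*, *VHT1* and *BIO3*. It was 0.79 to 0.81 for *BIO4* with *VPS75* and *RSC9* but 0.21 with *FSH2*, and 0.68 (*SPO16*) to 0.94 for *BIO5*.

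In the laboratory retentostats, *BPL1* was the gene that changed. Its normalized FPKM over points 1 to 4 was 29.6, 22.1, 21.5 and 20.6 in culture 1 and 33.9, 26.6, 19.1 and 15.2 in culture 2, so both cultures were lower at each point than at the point before. From point 1 to point 4 it fell by 0.81 on the log2 scale (SE 0.17, limma, adjusted p = 0.0139), and it was the only 1 of the 6 genes called, against 30.9% of all genes. This background was not stable, since the 1752 genes called became 384 without culture 1 and 130 without culture 2 at point 1, 2898 and 2897 without either library of point 2, and 512 without culture 2 at point 4. On the deposited scale it fell by 0.66 (adjusted p = 0.0322), with 34.0% of all genes called, of which 72.3% were higher, against 54.7% after scaling. At point 3 the change was -0.62 (adjusted p = 0.0335), with 30.0% of all genes called, and at point 2 it was -0.37 (adjusted p = 0.206), where 0.00% of all genes were called although 1509 of 5666 had an unadjusted p under 0.05. The call at point 4 was lost without culture 1 or 2 at point 1, or culture 2 at point 4, with adjusted p between 0.0632 and 0.111.

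None of the other genes was called in the laboratory retentostats. Points 1 and 4 did not overlap for *BIO3*, *VHT1* and *BIO5*, but each point holds only 2 libraries. The share of all genes without overlap was not counted, so nothing is concluded from this. *BIO2* measured 222, 122, 154 and 120 in culture 1 and 215, 146, 181 and 220 in culture 2, so the libraries of points 2 and 3 lay below both of point 1, and the cultures were far apart at point 4. *BIO3* was 20.4 and 22.9 at point 1 and 17.1 and 15.0 at point 4, a log2 change of -0.41 (adjusted p = 0.119), which was called without culture 1 (adjusted p = 0.0285) or culture 2 (adjusted p = 0.0295) at point 2. *VHT1* was 71.6 and 65.9 at point 1 and 58.2 and 42.9 at point 4, a log2 change of -0.45 (adjusted p = 0.128). *BIO4* ranged from 23.3 to 49.7 without a common direction. *BIO5*, at a level well above its minimum here, stayed between 14.9 and 20.1 in all 8 libraries, with a log2 change of 0.21 (SE 0.13, adjusted p = 0.256).

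**Figure D3:**
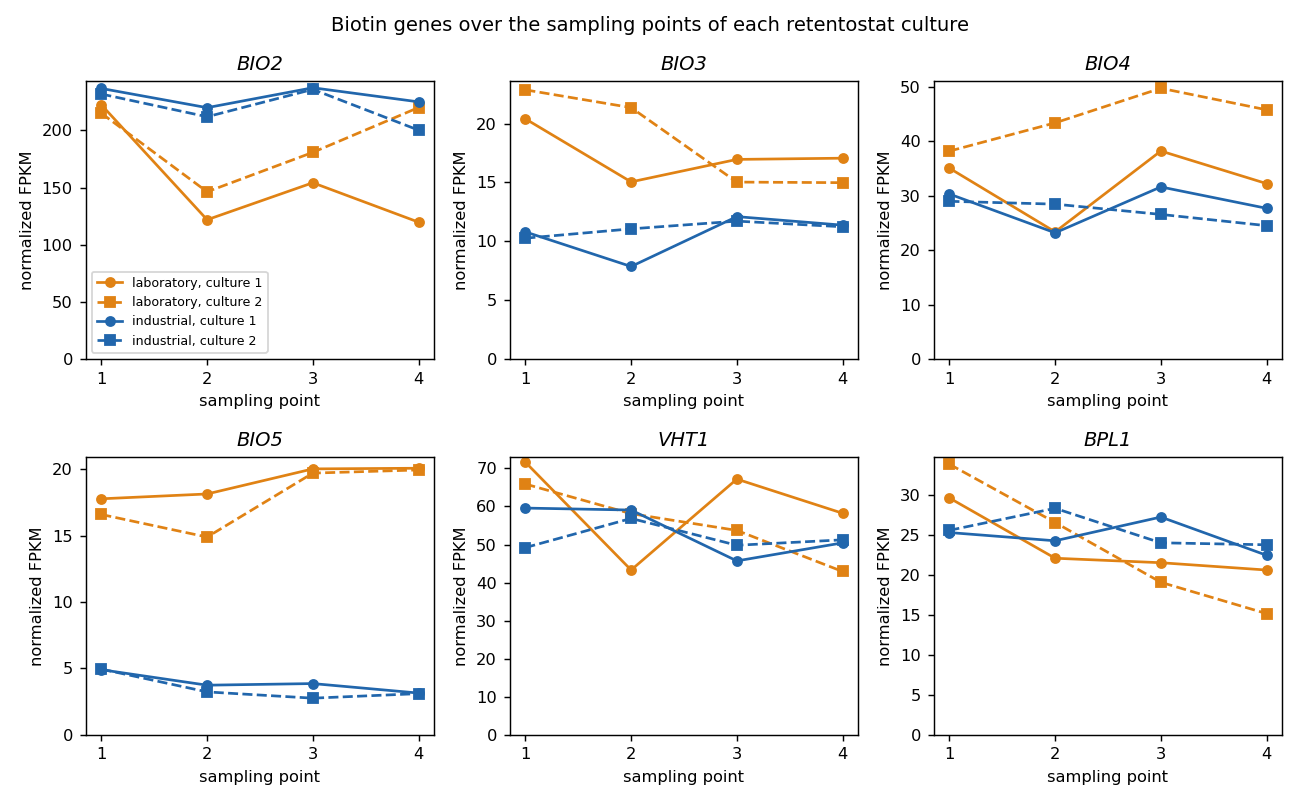
Normalized FPKM (y axis, from 0) of the 6 biotin genes over sampling points 1 to 4 (x axis) in 2 laboratory and 2 industrial retentostat cultures, each line being a culture. *BPL1* declines in both laboratory cultures, from 29.6 and 33.9 to 20.6 and 15.2, and *BIO5* lies between 14.9 and 20.1 in the laboratory and between 2.76 and 4.95 in the industrial libraries.

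In the industrial retentostats, none of the 5 genes that passed the minimum level was called from point 1 to point 4 by limma, none had an unadjusted p under 0.05, and 28.0% of all genes were called. These 1437 genes became 259 or 843 without culture 1 or 2 at point 1, 2761 or 2762 without either library of point 2, and 344 or 151 without culture 1 or 2 at point 4. Of the 1437, 50.0% were higher after scaling and 63.2% with the deposited values. Changes at points 2 and 3 were not called either, against 17.8% and 17.3% of all genes. *BPL1* stayed between 22.5 and 28.4 in all 8 libraries, and *VHT1* between 45.7 and 59.6. *BIO2* held 200.2 to 237 and *BIO3* 7.86 to 12.1, and *BIO4* held 23.2 to 31.6. *BIO5* was the lowest and had the largest change. It measured 4.91 and 4.95 at point 1, and 3.74 and 3.23 at point 2. Points 3 and 4 gave 3.86 and 2.76, and 3.14 and 3.10. Every later library thus lay below both libraries of point 1, a pattern that was not counted over all genes. *BIO5* rested on 68 to 130 reads in each library. Its log2 change to point 4 was -0.52 (SE 0.17, adjusted p = 0.0591) in the fit without the minimum level, where 24.2% of genes were called, and 1 of the 6 genes then had an unadjusted p under 0.05. It was called without culture 1 (adjusted p = 0.0362) or culture 2 (adjusted p = 0.0359) at point 2, and with quantile normalization (-0.76, adjusted p = 0.0179).

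The change from point 1 to point 4 was then compared between the series, which share no library. None of the 6 genes was called by limma for this difference, and 5.56% of all genes were called. The 2 with an unadjusted p under 0.05 were *BPL1* and *BIO5*, the latter described only. *BPL1* differed by 0.67 (SE 0.22, adjusted p = 0.0860), industrial minus laboratory. It was called with quantile normalization (0.94, adjusted p = 0.0262), without either laboratory library of point 2 (adjusted p = 0.0482 and 0.0483), and without culture 1 at point 4 of the laboratory series (0.88, adjusted p = 0.0271). *BIO5* passed the minimum level in this joint fit only through the laboratory libraries, where its mean deposited FPKM was 22.8 against 3.70 in the industrial ones. Its difference of -0.73 (SE 0.22) is therefore given as a description. Of all genes called for this difference, 57.4% were positive after scaling and 39.6% with the deposited values.

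Levels between the series were set side by side without a test, because medium biotin and iron and, by the methods of the study, the sequencing company differ together and cannot be told apart. The glucose feed was 20 g/L in both groups compared here. At point 1 of the laboratory retentostats, with pH, CO2 and dilution rate as in the reference chemostats, *BIO3* was 0.67 and *BIO5* 0.49 higher in log2, at means of 21.6 against 13.4 and 17.2 against 12.5. *VHT1* was lower by a difference of -0.34, at 68.8 against 88.1, and *BIO2* by -0.20. *BPL1* was 0.14 and *BIO4* 0.06 higher. Without scaling, the difference of *BIO2* turned to 0.14 and that of *VHT1* to 0.01, where the median over all genes was 0.32. The quartiles over the 5464 genes compared were -0.46 and 0.42, with a median of -0.02, and 21.0% of genes differed by more than 2-fold, so *BIO3* and *BIO5* were outside the middle range of genes and none of the 6 passed 2-fold. Both genes of the regulators were higher in the laboratory retentostats, *VHR1*, the activator, at 32.7 against 9.03 and its paralogue *VHR2* at 22.4 against 5.70, and neither passed the minimum level over the steady-state or the industrial libraries.

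The genes of the proteins that carry biotin were followed beside the ligase. Of 6, 5 passed the minimum level at steady state, all but *HFA1*, the mitochondrial acetyl-CoA carboxylase. For high CO2 at pH 3, where 49.1% of all genes were called, 2 fell and 1 rose. *ACC1*, the cytosolic acetyl-CoA carboxylase, fell with a log2 change of -1.97 (SE 0.28, limma, adjusted p = 0.000561), from a mean of 556 ± 208 (SD, n = 3) to 138 ± 39.2, and the pyruvate carboxylase gene *PYC2* fell with -0.79 (adjusted p = 0.000739), while the urea amidolyase gene YBR208C rose with 1.18 (adjusted p = 0.00283). With the deposited values, *ACC1* and YBR208C remained called and *PYC2* was not, and *ARC1*, the tRNA-binding protein, was called as higher. The list had a median log2 change of -0.48, beside -0.01 over all genes. For low pH at 0.04% CO2, where *BPL1* rose, 0 of the 5 were called by limma with either scaling, and *PYC1* had the lowest adjusted p (0.0517), with a log2 change of 0.60. Against the reference, where 9.83% of all genes were called, *ACC1* and *PYC2* fell and YBR208C rose at pH 3 with 50% CO2. *PYC2* lost this call on the deposited scale (-0.30, adjusted p = 0.251).

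In the laboratory retentostats, 3 of the 6 carrier genes fell from point 1 to point 4, as did *BPL1*, where 30.9% of all genes were called and 793 of 5666 were called and lower. They were *ACC1* (-1.01, adjusted p = 0.0256), *PYC2* (-0.92, adjusted p = 0.0113) and *ARC1* (-1.25, adjusted p = 0.00292), and the list had a median of -0.50 beside 0.06 over all genes. In the industrial retentostats, *ACC1* (-0.87, adjusted p = 0.00372), *ARC1* (-0.78, adjusted p = 0.0105) and YBR208C (-0.52, adjusted p = 0.00995) fell, where 718 of 5130 genes were called and lower and *BPL1* was not called. None of the 6 differed between the series by limma.

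Genes around the pathway were counted from the same kind of list. The S-adenosylmethionine synthetase genes *SAM1* and *SAM2*, whose product Bio3 and Bio2 use, both fell for high CO2 at pH 3 (-1.20 and -1.12, adjusted p = 0.0102 and 0.00209) and in the laboratory retentostats (-1.69 and -1.88, adjusted p = 0.00552 and 0.00921). Over all genes, 1369 of 5078 and 793 of 5666 were called and lower in these 2 comparisons. With the deposited values, the call for high CO2 at pH 3 held for *SAM2* and not for *SAM1*. *SAM1* rose for low pH at 0.04% CO2 with 1.35 (adjusted p = 0.0113). Of the 4 genes for iron-sulfur maturation and lipoate synthase, *IBA57*, a factor for radical enzymes such as Bio2, fell at low pH with 0.04% CO2 (-0.72, adjusted p = 0.00104), as did *BIO2*. The other 3 were not called after scaling, and 3 of the 4 were called as lower with the deposited values. Over all 5078 genes, 399 were called and lower after scaling and 1899 with the deposited values. *IBA57* and *BIO2* did not change together elsewhere. At pH 3 with 50% CO2 against the reference, *IBA57* (-0.49, adjusted p = 0.0149) and *ISA2* (-0.44, adjusted p = 0.0386) fell by limma after scaling. *BIO2* was not called there, and 309 of all genes were called and lower. The interaction of *IBA57* was 0.60 (adjusted p = 0.0198), beside -0.02 for *BIO2*. Of the 13 genes of the iron regulon, 10 passed the minimum level, and *ARN2* was at 0 in every library. Their summed normalized FPKM was highest in the group in which *BPL1* was high, at 6678 to 8086 at pH 3 with 0.04% CO2 against 955 to 1755 in the other 9 steady-state libraries. Most of that sum, of mean 7446, came from *FIT3* (mean 4561) and *FIT2* (1537), and the means of *ENB1* and *FRE1* were higher at pH 5 with 50% CO2. At low pH with 0.04% CO2, 5 of the 10 rose (4 with the deposited values), where 684 of all 5078 genes were called and higher (296 with the deposited values), led by the mannoprotein gene *FIT3* (4.46, adjusted p = 5.43e-05). *VHT1*, whose level iron depletion is known to raise, was 93.8 ± 6.95 in that group and 88.1 ± 17.2 in the reference (SD, n = 3). The part of iron in these results was not tested. Of the genes next to the *BIO* loci, 3 of 4 passed the minimum level, and *HOL1*, beside *BIO5*, and *IMA1*, beside *BIO2*, rose at low pH with 0.04% CO2 (0.73 and 1.08, adjusted p = 0.0237 and 0.00633), the former not with the deposited values.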

How the data were processed

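RNA of 26 cultures or sampling points of *S. cerevisiae* was measured by RNA-seq. The deposited tables hold FPKM, 1 table per library. According to the study's methods and the submitters' processing notes, the authors aligned reads to the S288C genome (R64) with STAR (2.5.3a) in 2 passes, without soft clipping, removed ambiguous reads, counted reads per gene with HTSeq, and tested with edgeR after TMM normalization. The deposited FPKM carry no TMM factor that could be seen in them. For 99.8 to 100% of values up to 1000 reads, FPKM times gene length gave whole reads within 0.05, and 5917 of 6600 gene IDs matched R64.

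Each library was divided by its median ratio over 5422 genes. The libraries of the steady-state groups, of each retentostat series, or of both series were then fitted with limma 3.58.1 (R 4.3.3, trend) on log2(normalized FPKM + 1), for genes with a mean deposited FPKM of at least 10. P-values were adjusted by Benjamini-Hochberg over all genes tested, with a limit of 0.05. *BIO5* missed the minimum in 2 fits and was taken from fits without it. The other steps used Python 3.11.15, numpy 2.4.6, pandas 2.3.3 and matplotlib 3.10.9. On simulated data, 200 of 200 genes changed 4-fold were recovered with 10 others called of 4988 genes (low pH with 50% CO2 against the reference), and 200 with 12 others of 5513 (laboratory retentostat). The simulated reads had the same dispersion for every gene, and the changes were larger than those of the biotin genes. This recovery therefore does not measure how reliable the reported calls are.

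Replicates are separate cultures, so p-values of the steady-state fits measure the spread between cultures. They treat these cultures as independent, but deviations were shared across the pH 5 groups. Reference library 3 and library 1 at pH 5 with 50% CO2 had r = 0.85. Each had r of -0.80 to -0.59 with the other libraries of the opposite pH 5 group. Both had the highest scaling factors at pH 5 (1.01 and 1.03), and several calls above changed without either. The cause was not tested. The main retentostat fits had no block for culture. Their p-values therefore treat libraries of the same culture at different points as independent. Sampling points are paired by culture in the labels, and deviations of the same culture at 2 points had r of -0.01 to 0.72 (laboratory) and -0.07 to 0.27 (industrial). None of 325 library pairs was identical. Named genes are the 6 members, genes of the lists and the 3 genes most alike each member. Members, lists and tests were chosen with earlier results of these data known. Alternatives were no scaling, quantile normalization, a pseudocount of 0.1, no minimum level, the study's limits, a replicate block, the compared groups alone, a linear trend over sampling points, the labelled chemostat alone, and each library left out in turn.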

Additional observations from a re-analysis of the deposited data

Results flagged for a closer look

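*BPL1* drew attention because its response to 50% CO2 differed between the pH levels by a test of the difference itself. Its log2 change with high CO2 was 0.33 at pH 5 and -1.15 at pH 3, and the interaction was -1.48 (limma, adjusted p = 0.00258). It stayed between -1.64 and -1.36 without each library in turn, with adjusted p of at most 0.0120.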

How the results depend on the processing

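Of 170 recomputed counts of biotin genes called, 142 stayed within 1.5 times the reported count, and of 888 recomputed changes of single genes, 822 kept their direction and their side of the limit, 16 lost a call, 26 gained one and 24 turned direction. *BIO5* without the minimum level, combined with other settings after seeing the data, lost a call in 24 of 112 cases, gained one in 5 and turned in 0. With the study's limits (adjusted p under 0.005 and above 2-fold), 1 gene was called for low pH at 0.04% CO2, 1 for high CO2 at pH 3 and 0 in the laboratory retentostat. With the deposited values, 2 were called for high CO2 at pH 3. Without the minimum level, 1 was called for low pH with 50% CO2 against the reference and 1 for low pH at 50% CO2. With quantile normalization, 2 passed the limit for the retentostat difference, *BPL1* and *BIO5*. Counts for this difference, here and below, include *BIO5*, although it is given there as a description only.

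Directions turned with the deposited values for low pH at 0.04% CO2 (*BIO4* -0.21, *VHT1* -0.34), for both changes against the reference (*BPL1* 0.077), for high CO2 at pH 3 (*BIO4* 0.051), for low pH at 50% CO2 (*BIO4* 0.027) and for the interaction (*BIO2* 0.62, *BIO4* 0.24, *VHT1* 0.070). *BIO2* turned for the interaction with quantile normalization (0.23), and against the chemostat alone *BPL1* turned against the reference (0.047) and *BIO2* for high CO2 at pH 3 (-0.12). The cause was not tested.

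Without each library in turn, the number called ranged from 0 to 0 for high CO2 at pH 5, 1 to 3 for low pH at 0.04% CO2, 0 to 1 for both changes against the reference, 4 to 5 for high CO2 at pH 3, 0 to 3 for low pH at 50% CO2, 1 to 3 for the interaction, 0 to 2 and 0 to 0 for the laboratory and industrial retentostats, and 0 to 2 for their difference. Uncalled changes that turned in these fits ranged from -0.27 to 0.092 (*BIO3*) and -0.36 to 0.050 (*VHT1*) for high CO2 at pH 5, -0.025 to 0.25 (*VHT1*) for low pH at 0.04% CO2, -0.21 to 0.0031 (*BPL1*) against the reference, -0.14 to 0.20 (*BIO2*) for the interaction, -0.86 to 0.0089 (*BIO2*) and -0.18 to 0.32 (*BIO4*) in the laboratory retentostat, -0.22 to 0.046 (*VHT1*) in the industrial one, and -0.15 to 0.72 (*BIO2*) for their difference.

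A replicate block changed no call of the genes that passed the minimum level (2, 4 and 1 called for low pH at 0.04% CO2, high CO2 at pH 3 and the interaction, 1 in the laboratory retentostat). *BIO5* lost its calls against the reference (adjusted p = 0.0693) and for high CO2 at pH 3 (adjusted p = 0.0536). Same-numbered steady-state libraries share only a number, and their deviations had r of -0.80 to 0.50 (median -0.05), against -0.72 to 0.85 in others.

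Calls over all genes moved when libraries were left out, to 53 to 134 from 96, 512 to 1472 from 1083, 191 to 1164 from 499, 1589 to 2815 from 2494, 81 to 1665 from 314, 407 to 2394 from 1054, 130 to 2898 from 1752, 151 to 2762 from 1437 and 39 to 834 from 312, in the order of the ranges above. The lowest and highest of these came without libraries 2 and 1 at pH 5 with 50% CO2 for high CO2 at pH 5 and for low pH at 50% CO2, libraries 3 and 1 there for the interaction, and reference libraries 2 and 3 for both changes against the reference. For low pH at 0.04% CO2 and high CO2 at pH 3, they came without library 3 at pH 3 with 0.04% CO2 and library 1 at pH 5 with 50% CO2. Those of the retentostat difference came without industrial culture 1 at point 4 and laboratory culture 2 at point 2. They also moved by more than 1.5 times with the deposited values for low pH at 0.04% CO2 (2195) and the interaction (2667). With the study's limits they were 26, 184, 75, 456, 49, 129, 192, 123 and 22, in the same order. They were 563 for the retentostat difference with quantile normalization, 297 (against the reference), 183 (low pH at 50% CO2) and 655 (interaction) with the block, 48, 281 and 100 with the groups alone (high CO2 at pH 5, against the reference, low pH at 50% CO2), 1643 (high CO2 at pH 3) and 288 (against the reference) with the labelled chemostat alone, and 834 for the industrial retentostat with a linear trend. *BIO5* rested on 68 to 439 reads in the steady-state and industrial libraries, and the part of this depth in its lost calls was not tested.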
